A study of Mus musculus with 4 samples.

Results

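Imprinted genes are transcribed mainly or only from the maternal or the paternal copy, a choice set by DNA methylation laid down in the germ line and kept in somatic cells. Many of them lie in domains that share a control region, and several are known for high expression in the developing and adult nervous system. The 10 imprinted genes of neural cells described here, chosen for their known neural expression and found by their exact names in the deposited count table, were Meg3, Rian, Peg3, Ndn, Snrpn, Nnat, Dlk1, Plagl1, Impact and Sgce. All 10 had a row among the 42458 rows of the table. The files give the total count per gene and not per parental copy, so the level of each gene was measured and its imprint was not.

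RNA of 50 sorted spinal cord cells was sequenced from each of 4 C57BL6 mice. AAV2-CAG-tdT, an adeno-associated virus that makes the red protein tdTomato, had been injected into a brain ventricle of every mouse, and tdTomato-positive live cells from tissue around the central canal were sorted to obtain a fraction rich in CSF-cNs (neurons that contact the cerebrospinal fluid), per the labels. CAG is a promoter active in many cell types, so the label itself is not specific to a neuron. The 4 libraries form 1 group with 1 library per mouse, and no control group was analysed here. The labels read here give no age. Lists of 4 values are for mice 1, 2, 3 and 4 in this order, and levels are CPM (counts scaled to library size with TMM factors) unless they are said to be per kb of exonic length.

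The libraries held 83007030 to 115479640 counts, at which a count of 0 allows up to 0.0278, 0.0321, 0.0348 and 0.0334 CPM (3 counts). This limit and the intervals given below cover counting error only, since amplified reads without molecular identifiers are not independent molecules. Not all libraries carried the markers of the labelled cell type. The CSF-cN marker gene Pkd2l1 stood at 17.9, 0.193, 665 and 690 CPM, and the 9 CSF-cN markers summed to 20.3, 12.9, 942 and 846 CPM, of which 1, 1, 8 and 5 reached 10 CPM, and P2rx2 had no count. The AAV2-CAG-tdT row had 5, 58, 13533 and 153379 counts, and a second row named for tdT (PC.G5.tdT) had 0, 8, 760 and 9924 counts. The 10 microglia markers were the most abundant list in each library (55199, 62015, 36416 and 52866 CPM summed), and the 10 oligodendrocyte markers were high in mice 1 and 3 (15465, 236, 19788 and 455 CPM, with 9, 5, 9 and 5 at 10 CPM or more).

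Of the 10 imprinted genes, 9 passed the filter of at least 10 counts in total and were tested, and Dlk1 had no count in any library. Ndn, Snrpn, Sgce and Impact exceeded a level of 10 CPM in edgeR's quasi-likelihood test (Benjamini-Hochberg adjusted p under 0.05). That is 4 of the 9 tested genes, beside 36.7% of all 18522 tested genes. limma-voom also called 4, beside 35.9% of tested genes, and DESeq2 called 4, beside 39.5%. The number called below 10 CPM was 0 by edgeR (0.664% of all genes), also at an unadjusted p under 0.05, 0 by limma-voom (33.3%) and 0 by DESeq2 (13.1%). Meg3, Peg3, Nnat, Plagl1 and Rian were not told apart from 10 CPM by edgeR. Over the 9 genes the median log2 level relative to 10 CPM was 1.73, beside -0.07 over all tested genes. The 10 genes summed to 444, 292, 1417 and 1120 CPM, and 5, 2, 8 and 9 of them stood at 10 CPM or more.

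The genes fell into 2 kinds by their spread between mice. Sgce and Impact varied least and stood above 10 CPM in all 4 libraries, and the other 7 tested genes differed widely between them. Meg3, Rian, Peg3, Ndn, Snrpn, Nnat and Impact, 7 of the 9, had levels in both mice 3 and 4 above those in both mice 1 and 2, an order that 18.9% of all tested genes had. Mice 3 and 4 are also the libraries with the higher sums of CSF-cN markers, of the 10 pan-neuronal markers (134, 90.3, 1125 and 393 CPM, with 4, 2, 8 and 6 at 10 CPM or more), of the 8 ependymal markers (1.72, 3.38, 13.6 and 68 CPM, with 0, 0, 0 and 4 at 10 CPM or more) and of the 5 fibroblast markers (8.37, 0.107, 995 and 109 CPM). Of the pan-neuronal markers, Snap25, Tubb3, Stmn2, Syt1, Rbfox3 and Elavl4 were higher in both mice 3 and 4 than in both mice 1 and 2. Uchl1, Elavl3 and Map2 were higher in mouse 1 than in mouse 4, and Nefl was highest in mouse 2. Of the fibroblast markers, Col1a1 and Col3a1 had no count and Dcn alone held 990 and 108 CPM in mice 3 and 4. Col1a2 was highest in mouse 1 (6.96, 0.0107, 5.05 and 0 CPM), and Lum had counts in mouse 4 only (0.769 CPM). The part of any of these cell types in the imprinted gene levels was not tested, and in these bulk libraries fewer cells of a type and less RNA per cell cannot be told apart.

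**Figure D1:**
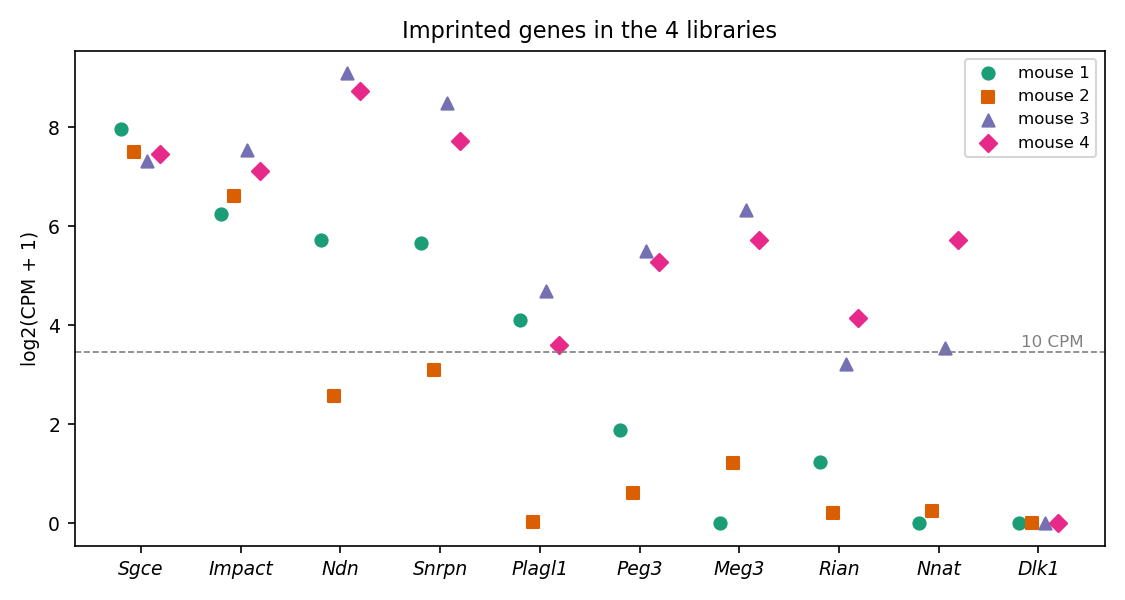
Level of the 10 imprinted genes as log2(CPM + 1) in each of the 4 libraries, 1 point per mouse, with a dashed line at 10 CPM. Sgce and Impact lie above the line in all 4 mice, Ndn and Snrpn lie below it in mouse 2 alone, and Dlk1 is at 0 in every mouse.

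**Figure D2:**
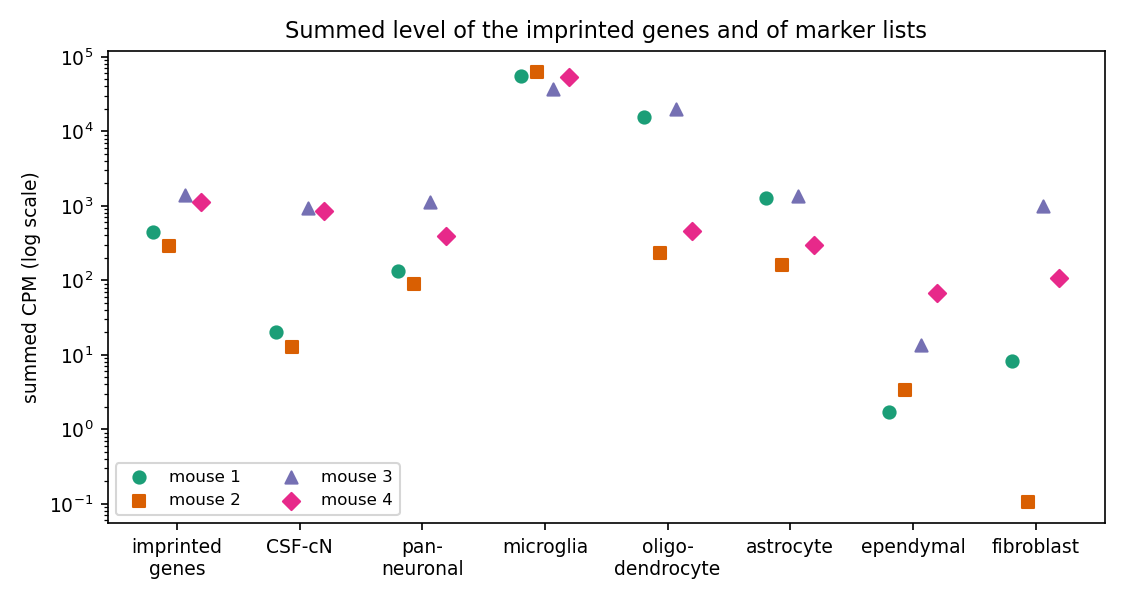
Summed CPM (log scale) of the 10 imprinted genes and of 7 cell type marker lists in each of the 4 libraries. The imprinted genes are higher in mice 3 and 4 (1417 and 1120 CPM) than in mice 1 and 2 (444 and 292 CPM), as are the CSF-cN, pan-neuronal, ependymal and fibroblast lists, while the microglia list spans only 36416 to 62015 CPM.

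The starts of 5 of the genes that had this order are shown because they hold a short sequence motif described below. Each window covers 250 bases before and 50 bases after a gene start annotated by RefSeq on GRCm38.p6, written from 5′ to 3′ on the strand of the gene, with the motif in capitals. The motifs were chosen after the sequences had been read, so their excess in these genes over all windows was fixed by that choice. A window was found for 8 of the 10 genes (12 windows), all but Impact and Sgce. Meg3 lies at chr12:109540746-109541045 on the plus strand, Peg3 at chr7:6730370-6730669 on the minus strand, Ndn at chr7:62348027-62348326 on the plus strand, Snrpn at chr7:60005150-60005449 on the minus strand and Nnat at chr2:157559828-157560127 on the plus strand.
Meg3: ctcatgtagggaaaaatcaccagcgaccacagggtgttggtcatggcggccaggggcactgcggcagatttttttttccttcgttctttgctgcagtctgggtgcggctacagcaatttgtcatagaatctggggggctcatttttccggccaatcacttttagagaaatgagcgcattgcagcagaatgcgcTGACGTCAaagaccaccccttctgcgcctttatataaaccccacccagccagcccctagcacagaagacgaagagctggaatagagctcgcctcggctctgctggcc
Peg3: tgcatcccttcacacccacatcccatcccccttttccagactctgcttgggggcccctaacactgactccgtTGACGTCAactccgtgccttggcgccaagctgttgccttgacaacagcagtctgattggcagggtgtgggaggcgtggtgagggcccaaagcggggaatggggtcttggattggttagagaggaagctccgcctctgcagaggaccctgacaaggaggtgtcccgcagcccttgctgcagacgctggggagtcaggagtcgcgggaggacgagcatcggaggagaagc
Ndn: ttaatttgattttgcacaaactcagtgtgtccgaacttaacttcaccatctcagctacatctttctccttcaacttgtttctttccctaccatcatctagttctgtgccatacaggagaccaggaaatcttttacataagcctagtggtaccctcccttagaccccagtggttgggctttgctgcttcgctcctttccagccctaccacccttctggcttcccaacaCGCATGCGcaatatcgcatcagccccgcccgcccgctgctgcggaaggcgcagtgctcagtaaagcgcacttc
Snrpn: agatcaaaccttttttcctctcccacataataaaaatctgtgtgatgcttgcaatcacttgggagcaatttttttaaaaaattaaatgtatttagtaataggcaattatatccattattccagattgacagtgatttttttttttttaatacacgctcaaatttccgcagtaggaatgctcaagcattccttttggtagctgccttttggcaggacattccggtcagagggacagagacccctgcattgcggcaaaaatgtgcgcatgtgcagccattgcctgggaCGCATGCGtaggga
Nnat: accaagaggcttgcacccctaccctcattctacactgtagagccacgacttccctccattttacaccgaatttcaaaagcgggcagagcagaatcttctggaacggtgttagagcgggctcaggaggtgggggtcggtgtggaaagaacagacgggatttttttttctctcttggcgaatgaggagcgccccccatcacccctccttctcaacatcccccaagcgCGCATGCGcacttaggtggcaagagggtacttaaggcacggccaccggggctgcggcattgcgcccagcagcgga

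The capitals in the Meg3 and Peg3 windows mark TGACGTCA, the palindrome bound by CREB family factors, 57 and 178 bases before the start. Of all 32851 windows of this length, 1.79% held these letters, and 2 of the 8 imprinted genes with a window did. The capitals in the Ndn, Snrpn and Nnat windows mark CGCATGCG, the core of the motif of the factor NRF1, 23 and 25 bases before the start in Ndn and Nnat and just after it in Snrpn. These letters stood in 1.87% of all windows and in 3 of the 8 genes, with all 4 annotated Snrpn starts among them. The shares count windows and the numbers for the imprinted genes count genes, so they are not like for like. Both motifs equal their own reverse complement, so a single search covers both strands, and none of the 12 windows held both. The windows of Rian, Dlk1 and Plagl1 held neither. A match describes the letters and not a bound site. In the order shown, the windows of Meg3, Peg3, Ndn, Snrpn and Nnat had a GC content of 53.7%, 61.3%, 51%, 40.3% and 57.3%, beside a median of 52.7% over all windows, and 13, 13, 11, 7 and 17 CpG dinucleotides, beside a median of 7.

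Ndn codes for necdin, a growth-suppressing protein of the MAGE family found in postmitotic neurons, and is expressed from the paternal copy in the domain deleted in Prader-Willi syndrome. It lies on chromosome 7 (62346569 to 62350262, plus strand, ENSMUSG00000033585.5), with positions on build GRCm38 here and for the other genes. Its level was 51.7, 4.93, 546 and 424 CPM, averaging 257 ± 269 CPM (SD, n = 4). The libraries of mice 3 and 4 stood well above that of mouse 1, and mouse 2 was the lowest. The log2 level relative to 10 CPM was 4.68 (SE 0.43, edgeR adjusted p = 1.3e-04), and without mouse 3 it was 3.99 and still called (edgeR adjusted p = 0.0035).

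Snrpn codes for SmN, a spliceosomal core protein that stands in for the closely related SmB proteins, the products of Snrpb, in neurons. It is also expressed from the paternal copy in the Prader-Willi domain, on chromosome 7 (59982495 to 60140219, minus strand, ENSMUSG00000102252.5). Its level was 49.6, 7.54, 358 and 212 CPM, averaging 157 ± 161 CPM (SD, n = 4). The order of the mice was the same as for Ndn. It was called above 10 CPM (log2 3.97, SE 0.41, edgeR adjusted p = 2.5e-04), also without mouse 3 (log2 3.15, edgeR adjusted p = 0.0061). Of the Snrpn exonic bases, 34.1% are shared with other annotated genes, among them Snurf, which is made from the same transcript. How the counting divided such reads is uncertain, and Snurf had a similar pattern (48.8, 7.49, 217 and 121 CPM).

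Sgce, which codes for epsilon-sarcoglycan, a membrane glycoprotein whose human counterpart is mutated in myoclonus-dystonia, was the steadiest of the 9 tested genes. It is a paternally expressed gene on chromosome 6 (4674350 to 4747207, minus strand, ENSMUSG00000004631.15). Its level was 248, 180, 158 and 176 CPM, averaging 190 ± 39.4 CPM (SD, n = 4), with the highest value in mouse 1. It was called above 10 CPM (log2 4.25, SE 0.09, edgeR adjusted p = 1.0e-07).

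Impact codes for a protein that binds GCN1 and so restrains the amino acid sensor kinase GCN2. It is paternally expressed in the mouse and lies on chromosome 18 (12955852 to 12992950, plus strand, ENSMUSG00000024423.6). Its level was 75, 97.2, 186 and 139 CPM, averaging 124 ± 49 CPM (SD, n = 4). Every library stood above 10 CPM, and mice 3 and 4 were again the higher ones. It was called above 10 CPM (log2 3.64, SE 0.14, edgeR adjusted p = 1.7e-06).

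Peg3, a paternally expressed gene for a large zinc finger protein, was at 2.7, 0.524, 44.4 and 38 CPM, averaging 21.4 ± 23 CPM (SD, n = 4). It lies on chromosome 7 (6703892 to 6730431, minus strand). The libraries of mice 3 and 4 were above 10 CPM and those of mice 1 and 2 below it (in mouse 2, 49 counts, 95% Clopper-Pearson interval 0.388 to 0.693 CPM). Over the 4 mice it was not told apart from 10 CPM (log2 level 1.10, SE 0.79, edgeR adjusted p = 0.3), and without mouse 3 the log2 level was 0.45 (edgeR adjusted p = 0.75).

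Plagl1 codes for a zinc finger factor, also called Zac1, that can arrest the cell cycle and acts on other imprinted genes. This paternally expressed gene on chromosome 10 (13060504 to 13131694, plus strand) had another order of mice, with 16.2, 0.0107, 25 and 11.2 CPM, averaging 13.1 ± 10.4 CPM (SD, n = 4). It exceeded 10 CPM in mice 1, 3 and 4, with its higher values in mice 1 and 3, and had a single count in mouse 2 (95% Clopper-Pearson interval 2.71e-04 to 0.0596 CPM). Mice 1 and 3 were also the libraries with the higher sums of oligodendrocyte markers, given above, and of the 10 astrocyte markers (1254, 161, 1349 and 299 CPM, with 3, 3, 3 and 4 at 10 CPM or more). The astrocyte sum was carried by Aldoc (834, 11.6, 847 and 118 CPM) and S100b (298, 4.2, 440 and 10.5 CPM), whereas Slc1a3 (115, 122, 52.2 and 155 CPM), Aqp4, Gja1 and Gfap were highest in mouse 2 or 4. What part these cells had was not tested. The test did not tell Plagl1 apart from 10 CPM (log2 level 0.39, SE 1.01, edgeR adjusted p = 0.75), and without mouse 3 the log2 level was -0.14.

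Nnat, a paternally expressed gene, codes for neuronatin, a small membrane protein of the endoplasmic reticulum that acts on calcium handling, and lies on chromosome 2 (157560078 to 157562522, plus strand), within the span of Blcap. Its level was 0.00925, 0.193, 10.7 and 52 CPM, averaging 15.7 ± 24.7 CPM (SD, n = 4). Mouse 4 held most of it, and mice 1 and 2 had 1 and 18 counts (95% Clopper-Pearson intervals 2.34e-04 to 0.0516 and 0.114 to 0.304 CPM). It was not told apart from 10 CPM (log2 level 0.65, SE 1.26, edgeR adjusted p = 0.67), and without mouse 4 the log2 level was -1.50.

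The Dlk1-Dio3 domain on chromosome 12 gave counts for the maternally expressed non-coding RNAs Meg3 and Rian and none for Dlk1. Meg3, a long non-coding RNA (109541001 to 109571726, plus strand), was at 0.00925, 1.31, 79.5 and 51.7 CPM, averaging 33.1 ± 39.2 CPM (SD, n = 4). Mice 3 and 4 stood far above mice 1 and 2, which had 1 and 122 counts (95% Clopper-Pearson intervals 2.34e-04 to 0.0516 and 1.08 to 1.56 CPM). Meg3 was not told apart from 10 CPM over the 4 mice (log2 level 1.73, SE 1.02, edgeR adjusted p = 0.24), and without mouse 3 the log2 level was 0.81 (edgeR adjusted p = 0.67). The count table holds a second, numbered row for each of Meg3, Rian and Dlk1 with identical counts. Whether each row of such a pair holds all or part of the reads was not determined, so the levels of Meg3 and Rian are uncertain. Both rows of Dlk1 held 0 counts.

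Rian, the non-coding host of many small nucleolar RNAs downstream of Meg3 (109603940 to 109661716, plus strand), was at 1.36, 0.161, 8.33 and 16.7 CPM, averaging 6.63 ± 7.6 CPM (SD, n = 4). Only mouse 4 reached 10 CPM, and mice 1 and 2 had 147 and 15 counts (95% Clopper-Pearson intervals 1.15 to 1.6 and 0.0898 to 0.265 CPM). Its log2 level was -0.59 (SE 1.05, edgeR adjusted p = 0.64). With the repeated rows added, which was decided once the values were known, the log2 level of Rian was 0.41 (edgeR adjusted p = 0.7) and that of Meg3 was 2.73 (edgeR adjusted p = 0.052). Without mouse 4 the log2 level of Rian was -1.64 (edgeR adjusted p = 0.45).

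Dlk1, the paternally expressed gene for a membrane protein with EGF-like repeats that acts in neural precursors, lies on chromosome 12 (109452823 to 109463336, plus strand). It had 0 counts in all 4 libraries, which allows up to 0.0278, 0.0321, 0.0348 and 0.0334 CPM at 3 counts. Its paralogue Dlk2 also had no count. The remaining listed genes of the domain were low, with Rtl1, a retrotransposon-derived gene, at 0, 0.128, 8.68 and 2.33 CPM, the non-coding Mirg at 0.00925, 0.706, 1.58 and 0.746 CPM, and no count for Dio3.

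Mice 1 and 2 had few transgene and CSF-cN marker counts. When both were left out, a choice made once the values were known, edgeR called 6 of the 9 genes above 10 CPM, beside 37% of 17182 tested genes. Meg3 (log2 2.78, adjusted p = 5.5e-04) and Peg3 (log2 2.10, adjusted p = 0.0018) were added to the 4. This choice keeps only the libraries in which both were high, so the calls follow from it. limma-voom, whose means are taken over log values, gave Meg3, Peg3, Nnat and Plagl1 a log2 level below 0 (-2.23, -0.66, -3.40 and -1.75), with none of these called.

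The spread between mice was large for most of the 9 genes. Their median SD of log2(CPM + 1) was 2.42, beside 0.58 over all tested genes. It was 3.17 for Meg3, 3.04 for Ndn, 2.75 for Nnat, 2.45 for Peg3, 2.42 for Snrpn, 2.11 for Plagl1 and 1.80 for Rian, each above the SD of at least 93.5% of tested genes. Impact (0.57) and Sgce (0.28) exceeded only 49.6% and 19.5% of them. The median SD depended on mouse 2, without which it was 1.48. The columns deposited for 1 mouse differed by at most 0.22 on the same log2 scale in these genes (Peg3).

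**Figure D3:**
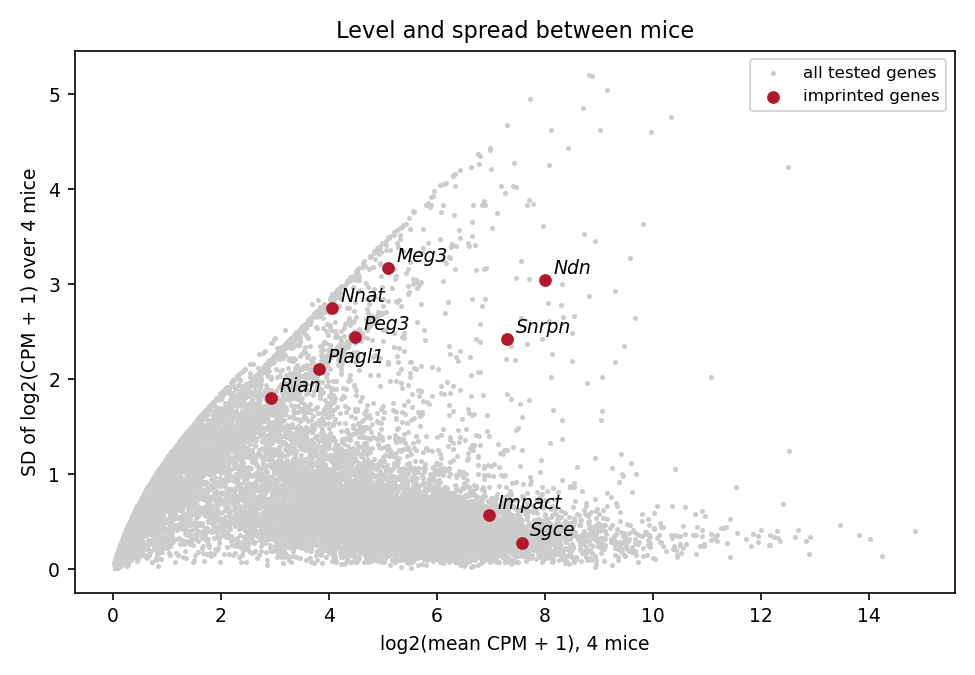
SD over 4 mice of log2(CPM + 1) against log2(mean CPM + 1), with all 18522 tested genes in grey and the 9 tested imprinted genes in red. Ndn and Snrpn combine a high mean (257 and 157 CPM) with a large SD (3.04 and 2.42), while Impact and Sgce lie among the bulk of genes.

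Levels were also scaled to kb of exonic length for a rough comparison between genes. This length joins all annotated exons of a gene and not only those of the transcripts present, so the order is approximate. Snrpn (mean 72.6 ± 74.4 CPM per kb) and Ndn (69.5 ± 72.8) came first. Impact (24.2 ± 9.56), Sgce (17.9 ± 3.71), Nnat (8.59 ± 13.5) and Meg3 (1.83 ± 2.17) followed. Last were Plagl1 (1.68 ± 1.33), Peg3 (1.61 ± 1.73), Rian (0.364 ± 0.417) and Dlk1 at 0 (SD, n = 4 each). Most neighbours in this order did not differ beyond their spread. Only Nnat over Meg3, Peg3 over Rian and Rian over Dlk1 kept their order in all 4 mice, and in mouse 1 Nnat and Meg3 had a single count each. Snrpn was above Ndn in 3 of 4 mice and Ndn above Impact in 2.

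Members of a domain and related genes were then compared within each mouse by the log2 ratio of their CPM per kb + 1. An exact permutation test that flips the signs of the 4 ratios (two-sided) was used, with adjustment over 11 pairs. The smallest exact p that 4 mice allow is 0.125, so no pair could pass the threshold. Snrpn over Ndn was 0.68, 0.94, 0.17 and -0.22 (mean 0.39 ± 0.52, SD, n = 4; exact p = 0.375, adjusted 0.516), a difference within the spread between mice. Meg3 over Rian was -0.10, 0.09, 1.89 and 1.01 (0.72 ± 0.92; exact p = 0.375, adjusted 0.516), with Meg3 the higher in mice 3 and 4 and hardly any of either RNA in the rest.

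Sgce exceeded its neighbour in each mouse. Its start lies 99 bases from that of Peg10, a paternally expressed retrotransposon-derived gene read in the other direction. Sgce was at 23.3, 17, 14.9 and 16.6 CPM per kb and Peg10 at 0.00139, 0.0112, 0.106 and 0.466 CPM per kb. The ratio was 4.05 ± 0.44 (SD, n = 4; higher in 4 of 4 mice, exact p = 0.125, adjusted 0.275), and Peg10 had its higher values in mice 3 and 4 while Sgce did not.

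Peg3 and the deubiquitinase gene Usp29 start 147 bases apart in opposite directions, and their promoter windows share 263 bases. Peg3 was at 0.203, 0.0394, 3.34 and 2.85 CPM per kb and Usp29 at 0, 5.92e-04, 0.347 and 0.807 CPM per kb. Both had their higher values in mice 3 and 4, with a ratio of 0.77 ± 0.75 (SD, n = 4; exact p = 0.125, adjusted 0.275). Usp29 had no count in mouse 1, which fixes the sign there.

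Nnat and its host gene Blcap differed in how they varied. Nnat was at 0.00506, 0.105, 5.83 and 28.4 CPM per kb and Blcap at 13.8, 5.68, 17.5 and 24.9 CPM per kb, so that Nnat was the higher in mouse 4 alone (-1.93 ± 1.73, SD, n = 4; exact p = 0.25, adjusted 0.458). Blcap was called above 10 CPM (log2 2.23, edgeR adjusted p = 3.9e-04). Ndn stood above Magel2, another MAGE gene of the same domain, in 4 of 4 mice (4.69 ± 2.71, SD, n = 4; exact p = 0.125, adjusted 0.275), and Magel2 had no count in mice 2 and 3.

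Snrpn varied between mice far more than Snrpb did. Snrpn was at 23, 3.49, 166 and 98.1 CPM per kb and Snrpb at 87.2, 102, 75.7 and 89 CPM per kb. Snrpn was the lower in mice 1 and 2 and the higher in mice 3 and 4, by 1.12 and 0.14 on the log2 scale (mean -1.28 ± 2.49, SD, n = 4; exact p = 0.5, adjusted 0.611). Plagl1 over its paralogue Plagl2 was higher in mice 1 and 3 and lower in mice 2 and 4 (-0.06 ± 1.62; exact p = 1, adjusted 1), and Plagl2 had its higher values in mice 2 and 4 (1.64, 18.4, 4.34 and 16.8 CPM). Impact exceeded Eif2ak4, which codes for the kinase GCN2, in 4 of 4 mice (3.64 ± 0.76; exact p = 0.125, adjusted 0.275). The pairs of Dlk1 with Meg3 and Dlk2 could not be read, because Dlk1 had no count.

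**Figure D4:**
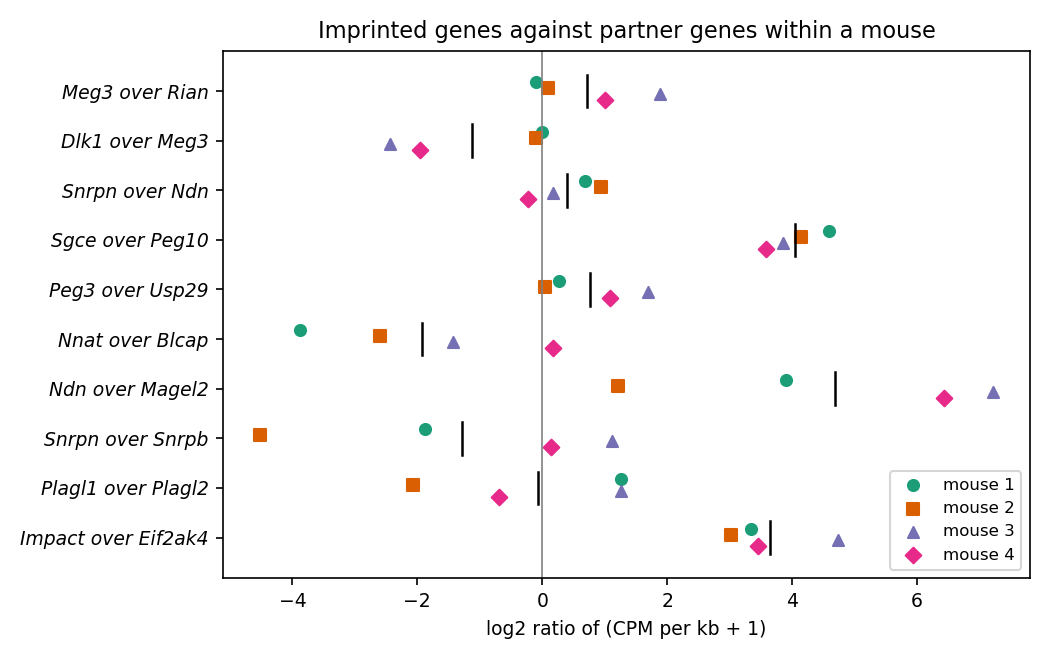
Log2 ratio of CPM per kb + 1 of an imprinted gene over its partner, 1 point per mouse, with the mean over 4 mice as a vertical bar. Sgce over Peg10, Ndn over Magel2 and Impact over Eif2ak4 lie to the right of 0 in all 4 mice, and Snrpn over Snrpb lies on both sides.

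Other genes reported as imprinted in at least 1 mouse tissue served as a wider list. Of 61 listed genes, 60 had a row, 49 were tested and 20 were called above 10 CPM by edgeR, which is 40.8% of those tested beside 36.7% of all tested genes. limma-voom called 18 above, beside 35.9% of all tested genes, and DESeq2 19, beside 39.5%. Below 10 CPM edgeR called 0 (0.664% of all tested genes), also at an unadjusted p under 0.05. limma-voom called 15 below, beside 33.3% of all tested genes, and DESeq2 3, beside 13.1%. DESeq2 gave no adjusted p for 13 of the 49, and its shares are of the genes with an adjusted p. By mean CPM, which is not scaled to length, the list was led by the tetraspanin gene Cd81 (3632 ± 588 CPM), Gnas, which codes for the stimulatory G protein alpha subunit (925 ± 229), the nucleosome assembly gene Nap1l5 (270 ± 258), the paraoxonase genes Pon3 (254 ± 64) and Pon2 (253 ± 59), and the ubiquitin ligase gene Ube3a (141 ± 7.58; SD, n = 4 each). They were followed by the signal peptide peptidase gene H13 (112 ± 23.8 CPM), Snurf (98.6 ± 91.8), the non-coding Kcnq1ot1 (90.5 ± 52.9) and Ppp1r9a (84.5 ± 16.4; SD, n = 4 each). The remaining calls were Cdkn1c, Casd1, Blcap, Commd1, Copg2, Inpp5f, Trappc9, Tssc4, Tspan32 and Peg13, the last only just (edgeR adjusted p = 0.048, and 0.19 by DESeq2).

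Within the domains of the 10 genes, neighbours differed in pattern. Nap1l5, a paternally expressed gene outside these domains, was at 87.4, 9.94, 503 and 479 CPM, and had the same order of mice as Ndn. In the Prader-Willi domain Mkrn3 (0.00925, 0, 17.4 and 10.8 CPM) and the non-coding Snhg14 (0.0185, 0.0535, 5.83 and 6.75 CPM) were found mainly in mice 3 and 4. Ube3a, maternally expressed in neurons, was at 135, 137, 141 and 152 CPM. In the Sgce domain, Pon2, Pon3, Ppp1r9a and Casd1 were called above 10 CPM, and Asb4, Calcr and Tfpi2 had no count. The level in both mice 3 and 4 was above that in both mice 1 and 2 for 23 of the 49 tested genes, beside 18.9% of all tested genes. Igf2, at 3.08, 0.0963, 29.5 and 6.61 CPM, and the decarboxylase gene Ddc, at 0.0185, 0.449, 43.9 and 39.2 CPM, were among them, and neither was called.

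**Figure D5:**
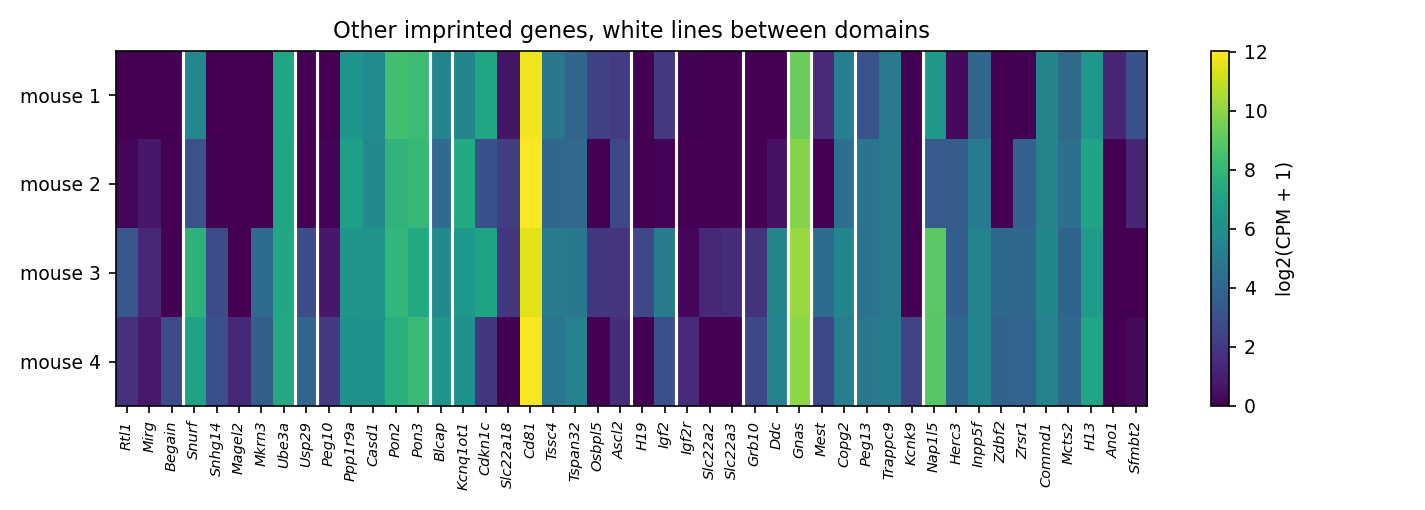
Level as log2(CPM + 1) of the 46 other imprinted genes with at least 1 CPM in 1 library, by mouse, with white lines between domains. Cd81 and Gnas are high in all 4 mice, and Snurf and Nap1l5 are brighter in mice 3 and 4 than in mice 1 and 2.

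Genes that maintain or read imprints differed in level. Of 12 listed genes 11 were tested and 7 were called above 10 CPM by edgeR, as many as by limma-voom and by DESeq2, beside 36.7% of all tested genes. The zinc finger gene Zfp445, which protects imprints, came first by mean CPM, not scaled to length (147 ± 56.9 CPM), followed by the insulator factor gene Ctcf (65 ± 14.7), the methyltransferase gene Dnmt3a (53.6 ± 21) and the corepressor gene Trim28 (53.4 ± 13.9; SD, n = 4 each). Tet2 and Tet3, which code for enzymes that oxidise methylated cytosine, were also called. Zfp57, the other zinc finger guardian of imprints, was at 0.0185, 0, 0.638 and 0.847 CPM, without a call by edgeR (adjusted p = 0.22). limma-voom called it below 10 CPM (log2 -6.77, adjusted p = 0.012). With Dnmt3b, limma-voom called 2 of the 11 tested genes below 10 CPM, beside 33.3% of all tested genes. DESeq2 and edgeR called 0 below. Dnmt1, the gene for the enzyme that copies methylation at replication, was at 7.81, 2.41, 12.3 and 17.6 CPM (log2 level 0.01, edgeR adjusted p = 0.99). Uhrf1, whose product recruits that enzyme, had 0, 0, 0 and 3 counts and was not tested. Tet1, at 18.2, 0.417, 29.9 and 22.3 CPM, was not called either (log2 level 0.83, edgeR adjusted p = 0.36).

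Finally, the genes with the most similar pattern were found for each of the 9 genes, as those with the smallest Euclidean distance of mean-centred log2(CPM + 1) over the 4 mice among the 9125 or 9126 other genes that averaged 10 CPM or more. With 4 values per gene, such distances describe only these libraries. The nearest genes of Ndn were Chl1, Scg5 and Nap1l5 (distances 0.75, 0.76 and 0.82), and those of Snrpn were Hmgb3, Mfsd6 and Flywch1 (0.07, 0.30 and 0.53). Meg3 was nearest to its own repeated row (0.00), Gprasp2 (0.10) and Pdzk1ip1 (0.43), and Rian to Cldn12, Abhd8 and Ppfibp1 (0.52, 0.74 and 0.84). Peg3 lay nearest to Pcbd1, Cald1 and Ahi1 (0.29, 0.35 and 0.43), and Nnat to Gabra4, Gm26911 and Gria2 (0.26, 0.70 and 0.74). For Plagl1 they were Fsd1, Zfp2 and Rora (0.24, 0.34 and 0.44), for Impact Atxn2, Polr2f and Phpt1 (0.14, 0.14 and 0.15), and for Sgce Eed, Lrch3 and Luc7l (0.04, 0.07 and 0.08).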

How the data were processed

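Expression was measured as RNA-seq counts in 4 libraries, 1 for each mouse and each from 50 sorted cells, made with the SMART-Seq v4 kit (11 PCR cycles) and the Nextera XT kit, per the labels' protocols. Libraries of this kind keep no strand and carry no molecular identifiers. The count table of the authors holds whole-number counts per gene in 2 columns per mouse. FastQC, Trim Galore, STAR, RSEM and DESeq2 with build mm10 are named by the submitters' processing notes. Their roles, versions and settings, and the annotation, were not given in the sources used here. Column sample numbers were read as mouse numbers. The 2 columns of a mouse differed by more than counting error (mean chi-square per gene 1.84 to 2.07, against about 1) and were summed as runs of 1 replicate. A second deposited table holds log2 values of the summed counts over a size factor, plus 1, as found from the values, and served as an alternative.

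CPM used edgeR's TMM factors (0.936, 0.982, 1.04 and 1.05). Genes with 10 or more counts over the 4 libraries (18522) were tested against 10 CPM with edgeR 4.0.16 in R 4.3.3. The quasi-likelihood F statistic of an intercept-only model was computed from the deviances, because the function of the tool needs a second column. P-values were adjusted by Benjamini-Hochberg with a threshold of 0.05, and the SE is the size of the log2 value over the root of F. The p-values rest on a spread between 4 animals that the model shares in part across genes. The SE is not the SD between mice. Ndn had an SE of 0.43 at an SD of log2(CPM + 1) of 3.04, and Rian 1.05 at 1.80. DESeq2 1.42.0 and limma 3.58.1 (voom) were alternatives, as were other scalings, no filter on counts, single columns, other pseudocounts, no length scaling and leaving out each mouse. Exonic lengths and positions are those of GENCODE M21 (GRCm38), in which all 157 listed genes were found. Of 2346 numbered rows, 344 hold the same counts as their unnumbered row, and they were kept. The remaining steps used Python 3.11.15.

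The genes, lists, pairs and tests were chosen with earlier results of these data known. Named genes are the 10 genes, both genes of each pair, the 10 other imprinted genes with the highest mean and any others called, the 4 highest imprint maintenance genes, the highest gene of each marker list and the 3 genes nearest in pattern to each gene. Mkrn3, Snhg14, Igf2, Ddc, Rtl1, Mirg, Zfp57, Dnmt1, Dnmt3b, Uhrf1, Tet1, Tet2 and Tet3 were named after their values were seen. So were S100b, Slc1a3, Aqp4, Gja1, Gfap, Col1a2, Lum, the pan-neuronal markers other than Snap25, and the genes without counts. A further gene of the imprint maintenance list is not reported here.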

Additional observations from a re-analysis of the deposited data

How the results depend on the processing

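The count of 4 imprinted genes called above 10 CPM was the same under each alternative run, except that 6 were called without mice 1 and 2. Ndn, Snrpn, Impact and Sgce were each called in 13 of 13 alternatives. The count of other imprinted genes ranged from 17 to 19 and that of imprint maintenance genes from 7 to 8 when each mouse was left out in turn. Meg3, Peg3, Nnat and Plagl1 turned below 10 CPM under limma-voom (log2 -2.23, -0.66, -3.40 and -1.75), and Rian turned above it without mice 1 and 2 (0.38) and with the repeated rows added (0.41), in each case without a call. Leaving out each mouse, the log2 level ranged from -1.50 to 1.10 for Nnat and from -0.14 to 0.81 for Plagl1, and the log2 ratio of Plagl1 over Plagl2 from -0.50 to 0.61. Without length scaling, Snrpn over Ndn was -0.28 and Plagl1 over Plagl2 0.05. This setting differs only in that CPM were not divided by exonic length (Snrpn 2.16, Ndn 3.69, Plagl1 7.82 and Plagl2 5.74 kb). The cause of the other changes was not tested. The median SD between mice was 3.00 with a pseudocount of 0.1, 3.11 in the authors' log2 table and 1.48 to 2.75 with each mouse left out. The size of several pair ratios also depended on the pseudocount. At 0.1 the log2 ratio was 6.54 for Sgce over Peg10 and 7.38 for Ndn over Magel2. It was 1.68 for Peg3 over Usp29 and 4.60 for Impact over Eif2ak4. DESeq2 gave no adjusted p for Nnat. Meg3 ranged from 0.81 to 2.18, Peg3 from 0.45 to 1.51 and Rian from -1.64 to -0.18 with each mouse left out. Depth limits the values of 0 or a few counts, such as Dlk1 in all libraries and Meg3 and Nnat in mouse 1. No paired analysis was possible because the samples form a single group. No set of 4 values among 29 examined held a sample far from the others by Dixon's ratio. With 4 values this is a weak check. It looks for a single outlying library and can hardly flag a split of mice 3 and 4 from mice 1 and 2.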

Other observations

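Cdkn1c, a maternally expressed gene of the Kcnq1 domain that codes for an inhibitor of cyclin-dependent kinases, was at 141, 7.12, 130 and 2.83 CPM, averaging 70.4 ± 75.7 CPM (SD, n = 4). It was called above 10 CPM (log2 2.82, edgeR adjusted p = 0.0081) with only mice 1 and 3 above that level, and not by limma-voom (log2 1.36, adjusted p = 0.2), an order unlike that of Ndn and Snrpn. The 10 oligodendrocyte markers summed to 15465, 236, 19788 and 455 CPM in mice 1, 2, 3 and 4, and their part in the Cdkn1c level was not tested.

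Commd1 (43.2, 44.3, 44.7 and 41 CPM), Trappc9 (31.3, 29.6, 31.2 and 33.9 CPM) and Ube3a varied little between mice, with an SD of log2(CPM + 1) of 0.06, 0.08 and 0.08, beside a median of 0.58 over all tested genes. Dnmt3b, a methyltransferase gene, had its counts almost only in mouse 4 (0, 0.0321, 0.116 and 13.4 CPM), the library with the highest sum of ependymal markers (1.72, 3.38, 13.6 and 68 CPM), whose part was not tested.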
